A study of Homo sapiens with 6 samples.

Results

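The genes described here make, import and sense cholesterol. They were taken from a list of 34 genes, of which 33 had a probe set on the arrays and a gene symbol in the platform annotation, among 19776 genes measured in all. FDFT1 was not analysed here. The brightest probe set on average stood for each gene, and that of CYP51A1 is also assigned to LRRD1 by the annotation. The RNA came from the H295R/TR SF-1 line, which was cloned from H295R human adrenocortical carcinoma cells so that doxycycline (Dox) induces the nuclear receptor SF-1, product of NR5A1. Of the 6 arrays, 3 were labelled as basal culture and 3 as Dox at 1 µg/mL, all after 72 h in the same medium with NuSerum and ITS+. The cells are 1 clone of a tumor line, so the arrays of a group are cultures of that clone.

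Cells build cholesterol from acetyl-CoA through mevalonate, farnesyl diphosphate, squalene and lanosterol. The SREBP transcription factors adjust this supply: when sterols in the endoplasmic reticulum are low, SCAP escorts an SREBP precursor to the Golgi, proteases release its active domain and genes of synthesis and uptake are transcribed, whereas INSIG proteins hold SCAP back when sterols are abundant. Adrenocortical cells use cholesterol as the precursor of all their steroids, and draw it from synthesis, from lipoproteins taken up through SR-BI and from esters stored in lipid droplets.

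Each array is named here by its label and a number in deposited order, and levels are the deposited log2 signals. For each of the 6 arrays, the array most alike in sterol genes carried the other label, and in 4 of them the match was close. Over the 33 genes, the SD of the difference between the arrays named basal 1 and Dox 1 was 0.07, and that between basal 3 and Dox 2 was 0.05, whereas the other 13 pairs of arrays, including all pairs with the same label, had an SD between 0.23 and 0.53. Between basal 2 and Dox 3 it was 0.33. No sterol gene differed by more than 0.15 within basal 1 and Dox 1, or by more than 0.11 within basal 3 and Dox 2. NR5A1 was at 5.84, 5.92 and 6.30 in basal 1, 2 and 3 and at 5.55, 6.21 and 6.41 in Dox 1, 2 and 3, so its level did not separate the labels (exact permutation test, two-sided, p = 1, n = 3 each, with 0.1 the smallest p possible). For SF-1 protein, the paper reports overexpression after doxycycline by immunoblot, which these arrays do not measure. Whether the NR5A1 probe set reads the transcript that doxycycline induces is not given in the sources used here. The arrays named basal 2 and Dox 3 had the narrowest spread of values over all probe sets (SD 2.36 and 2.37, against 2.43 to 2.44) and are called an array set. Of the adrenocortical markers, STAR, CYP11A1, CYP17A1, SULT2A1 and FDX1 lay above the median signal (at least 5.56) on every array. The ACTH receptor gene MC2R lay below it on 5 of 6, HSD3B2 on 2 and NR5A1 on 1. All 33 sterol genes were above that median on all arrays.

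**Figure D1:**
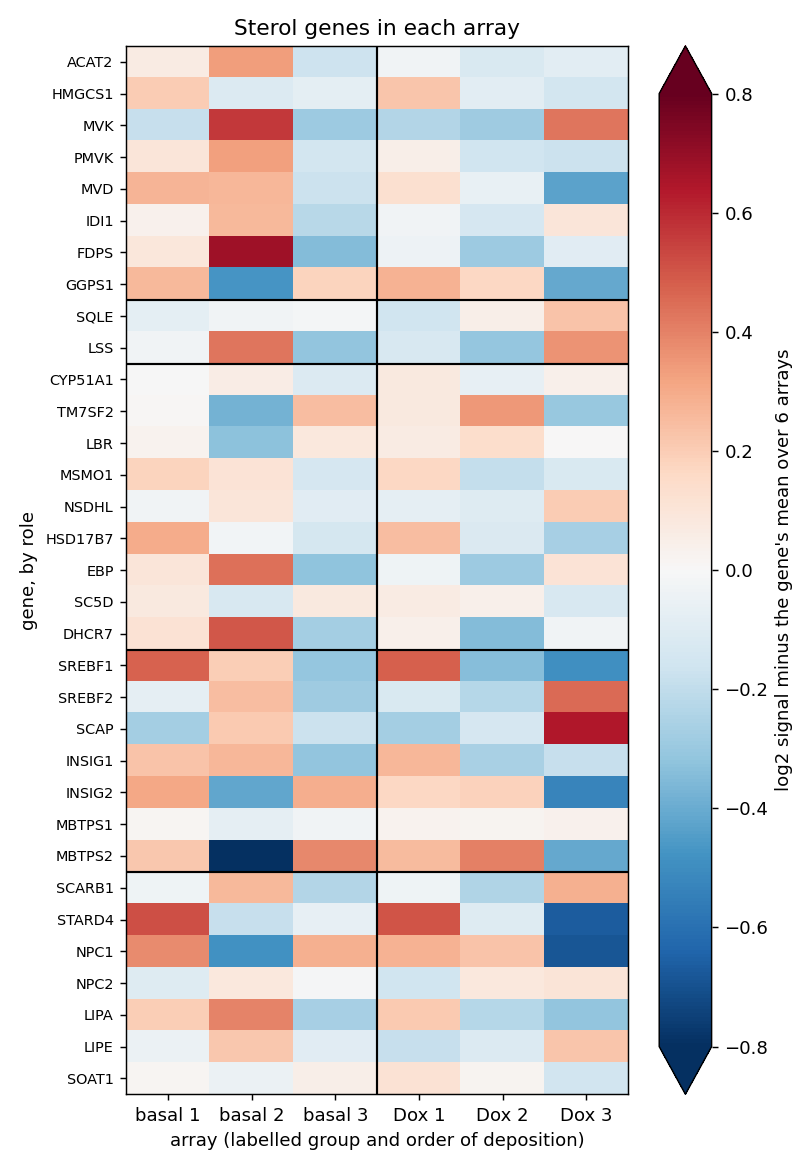
Log2 signal of 33 sterol genes (rows, grouped by role from mevalonate steps at the top to uptake, transport and esters at the bottom) in each of 6 arrays (columns), shown as the difference from the gene's own mean over the arrays, with red above and blue below it. The columns of basal 1 and Dox 1 look alike, as do those of basal 3 and Dox 2, and the strongest colours lie in basal 2 and Dox 3.

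How sterol genes respond to an increased SF-1 dosage was asked by setting the 3 Dox arrays against the 3 basal ones. Labels of some arrays may be wrong or exchanged, which was not tested, so every difference here is one between labels as deposited. No sterol gene was called higher or lower, as was the case for all genes (0% called in each direction; limma, adjusted p under 0.05). The largest mean differences were in FDPS, at 12.11 ± 0.51 in basal and 11.83 ± 0.13 in Dox arrays (SD, n = 3 each), and in MVD, at 6.43 ± 0.26 and 6.18 ± 0.28. Both were within the spread between arrays of a label. At the other end, the Golgi protease gene MBTPS2 was at 10.06 ± 0.67 in basal and 10.23 ± 0.43 in Dox arrays.

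The median difference of the 33 genes was -0.05, beside -0.00044 over all genes, and the range was -0.28 to 0.16. At an unadjusted p under 0.05 there were 0 sterol genes, where 0.551% of all genes lay. The values of the labelled groups did not overlap in 1 sterol gene, against 3.17% of all genes in either direction. This was MBTPS1, the other Golgi protease, at 9.84, 9.76 and 9.80 in basal 1, 2 and 3 and at 9.86, 9.85 and 9.87 in Dox 1, 2 and 3, a difference of 0.06 ± 0.11 (SE) that was not called (adjusted p = 1.0). The intervals of the differences were wide for several genes in this fit without a block, such as -0.92 to 0.68 for NPC1 and -0.95 to 0.60 for STARD4 (95%). With array set as a block, the same 6 arrays gave an SE of 0.07 in place of 0.34 for NPC1. For STARD4 the SE was 0.23 in place of 0.33. In that fit limma called 0 sterol genes and 0 of all genes.

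**Figure D2:**
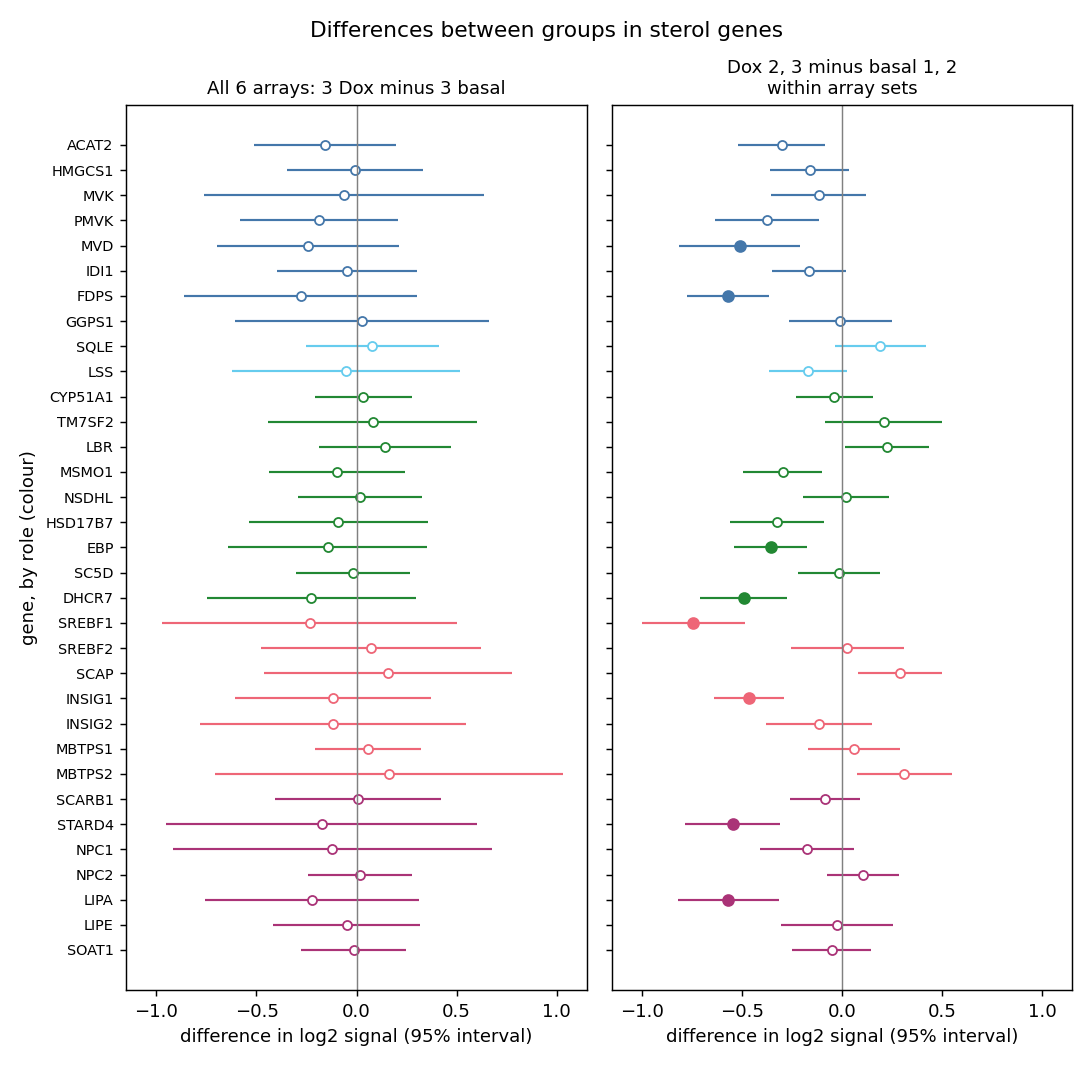
Difference in log2 signal with its 95% interval (x axis) for each of 33 sterol genes (y axis, coloured by role: dark blue, mevalonate steps; light blue, squalene and lanosterol steps; green, later sterol steps; red, SREBP machinery; purple, uptake, transport and esters), for all 6 arrays (left) and for Dox 2 and Dox 3 minus basal 1 and basal 2 within array sets (right). Filled circles passed the adjusted threshold, which 0 genes did on the left and 8 on the right, all of them lower.

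A further comparison left out basal 3 and Dox 1, each the close match of an oppositely labelled array, and set Dox 2 and Dox 3 against basal 1 and basal 2 with array set as a block (n = 2 each). Since the arrays were chosen with the data known, its p-values are not independent evidence. Here 8 of 33 sterol genes fell and 0 rose, where 3.58% of all genes were called lower and 3.42% higher (limma, adjusted p under 0.05). The 8 were MVD, FDPS, EBP, DHCR7, SREBF1, INSIG1, STARD4 and LIPA, and they came from each part of the pathway except the squalene and lanosterol steps. The median over the 33 genes was -0.12, beside -0.01 over all genes, and 0 of them changed by 2-fold or more. In either direction, 6.99% of all genes were called. At an unadjusted p under 0.05, 12 sterol genes were lower (9.01% of all genes) and 3 higher (8.29%). Dox 2 was below basal 1, and Dox 3 below basal 2, in 19 genes (31.7% of all genes). Both were above in 7 genes (29.2%), and the signs differed in 7. In 6 of the 8 genes that fell, the 3 highest arrays were basal 1, basal 2 and Dox 1. This order largely follows from how the genes were called, since Dox 1 closely matches basal 1 and basal 3 closely matches Dox 2. Its share over all genes was not computed. NR5A1 itself was at 0.43 ± 0.13 in this comparison and was not called (adjusted p = 0.0808), and of the 8 measured adrenocortical markers SULT2A1 was called higher and STAR and HSD3B2 lower. Because whole cultures were measured, a lower share of cells with a transcript and a lower level per cell cannot be told apart.

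Among the mevalonate steps, 2 of 8 genes fell. FDPS, which makes farnesyl diphosphate, was at 12.05, 12.64 and 11.62 in basal 1, 2 and 3 and at 11.93, 11.67 and 11.88 in Dox 1, 2 and 3. Its level in basal 2 stood above the rest, and the decrease in the further comparison was -0.57 ± 0.09 (SE), or 1.49-fold (adjusted p = 0.00285). MVD, the mevalonate diphosphate decarboxylase, was at 6.58, 6.57 and 6.13 in the basal arrays and at 6.43, 6.25 and 5.88 in the Dox arrays, with a change of -0.51 ± 0.14 (adjusted p = 0.0484). It lay close to the threshold and to the median signal.

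The 6 other mevalonate genes were not called, although all had a negative difference. PMVK, the phosphomevalonate kinase, was at -0.38 ± 0.12 (adjusted p = 0.0936), and ACAT2, the cytosolic thiolase of the first step, at -0.30 ± 0.10 (adjusted p = 0.104). HMGCS1, which makes HMG-CoA, was at -0.16 ± 0.09, the isomerase gene IDI1 at -0.17 ± 0.08, and the mevalonate kinase gene MVK at -0.12 ± 0.11. GGPS1, which takes farnesyl diphosphate toward protein prenylation rather than sterols, was at -0.01 ± 0.12, with an interval of -0.27 to 0.25.

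Neither measured gene of the squalene and lanosterol steps was called. SQLE, the squalene epoxidase, was at 9.77, 9.82 and 9.83 in the basal arrays and at 9.69, 9.89 and 10.07 in the Dox arrays. Its difference in the further comparison was 0.19 ± 0.10 (adjusted p = 0.408), a positive value beside the negative ones of the 8 measured mevalonate genes, of which GGPS1 was near 0. LSS, the lanosterol synthase, was at -0.17 ± 0.09 (adjusted p = 0.366).

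Of the 9 genes that turn lanosterol into cholesterol, 2 fell. DHCR7, the reductase of a final step, was at 10.27, 10.65 and 9.88 in basal 1, 2 and 3 and at 10.19, 9.80 and 10.12 in Dox 1, 2 and 3, a change of -0.49 ± 0.10 (adjusted p = 0.00969). EBP, the sterol isomerase, was at 11.42, 11.76 and 11.00 in the basal arrays and at 11.29, 11.03 and 11.44 in the Dox arrays, a change of -0.36 ± 0.08 (adjusted p = 0.0221). In EBP the array Dox 3 was the second highest of 6, above basal 1 and below its array set partner, basal 2.

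MSMO1, NSDHL and HSD17B7, which remove methyl groups from lanosterol, were not called. MSMO1, the methylsterol monooxygenase, was at -0.30 ± 0.09 (adjusted p = 0.0808), HSD17B7 at -0.33 ± 0.11 (adjusted p = 0.105) and NSDHL at 0.02 ± 0.10. The sterol reductases TM7SF2 and LBR, which catalyze the same step, had positive differences, 0.21 ± 0.13 and 0.22 ± 0.10, and were not called either (adjusted p = 0.508 and 0.257). CYP51A1, the lanosterol demethylase, was at -0.04 ± 0.09 and the desaturase gene SC5D at -0.02 ± 0.09. Both lay in narrow bands over all arrays, 10.92 to 11.10 for CYP51A1 and 10.48 to 10.69 for SC5D.

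The SREBP machinery was divided. SREBF1, which encodes the SREBP isoforms best known for fatty acid genes, had the largest change of the list. Its values were 9.22, 8.94 and 8.44 in basal 1, 2 and 3 and 9.22, 8.41 and 8.26 in Dox 1, 2 and 3, and the change in the further comparison was -0.75 ± 0.12, or 1.68-fold (adjusted p = 0.00215). SREBF2, which encodes the isoform best known for cholesterol genes, was at 8.37, 8.69 and 8.16 in the basal arrays and at 8.32, 8.22 and 8.89 in the Dox arrays, with a difference of 0.02 ± 0.13 (adjusted p = 0.961) and an interval of -0.26 to 0.31. The interval of SREBF1 ended at -0.49, below that of SREBF2, though the difference between the genes was not tested.

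INSIG1, itself a known SREBP target, fell by 0.47 ± 0.08 on the log2 scale (adjusted p = 0.00369). It was at 11.85, 11.89 and 11.31 in the basal arrays and at 11.88, 11.36 and 11.44 in the Dox arrays, so that basal 1, basal 2 and Dox 1 lay together above the others. INSIG2, whose transcript is less dependent on SREBP, was at -0.12 ± 0.12 (adjusted p = 0.720). The genes of the escort and the proteases had positive differences and were not called: SCAP was at 0.29 ± 0.10 (adjusted p = 0.117), MBTPS2 at 0.31 ± 0.11 (adjusted p = 0.135) and MBTPS1 at 0.06 ± 0.10.

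Among genes of uptake, transport and ester turnover, 2 of 7 fell. STARD4, a cytosolic cholesterol carrier, was at 10.27, 9.57 and 9.69 in basal 1, 2 and 3 and at 10.26, 9.66 and 9.09 in Dox 1, 2 and 3, a change of -0.55 ± 0.11 (adjusted p = 0.00862). LIPA, the acid lipase that frees cholesterol from lipoprotein esters in lysosomes, was at 9.78, 9.98 and 9.32 in the basal arrays and at 9.80, 9.35 and 9.27 in the Dox arrays, a change of -0.57 ± 0.11 (adjusted p = 0.00981). In LIPA the arrays basal 1, basal 2 and Dox 1 were higher than all others, whereas in STARD4 basal 2 was below basal 3.

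The lysosomal exporters differed little: NPC1 was at -0.18 ± 0.11 (adjusted p = 0.463) and NPC2 at 0.10 ± 0.08 (adjusted p = 0.619). SCARB1, which encodes the lipoprotein receptor SR-BI, was at 12.11, 12.40 and 11.91 in the basal arrays and at 12.11, 11.90 and 12.43 in the Dox arrays, a difference of -0.09 ± 0.08 with an interval of -0.26 to 0.09. LIPE, the hormone-sensitive lipase that opens stored esters, was at -0.03 ± 0.13, and SOAT1, which forms them, at -0.05 ± 0.09, with an interval of -0.25 to 0.14. None of these 5 was called.

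**Figure D3:**
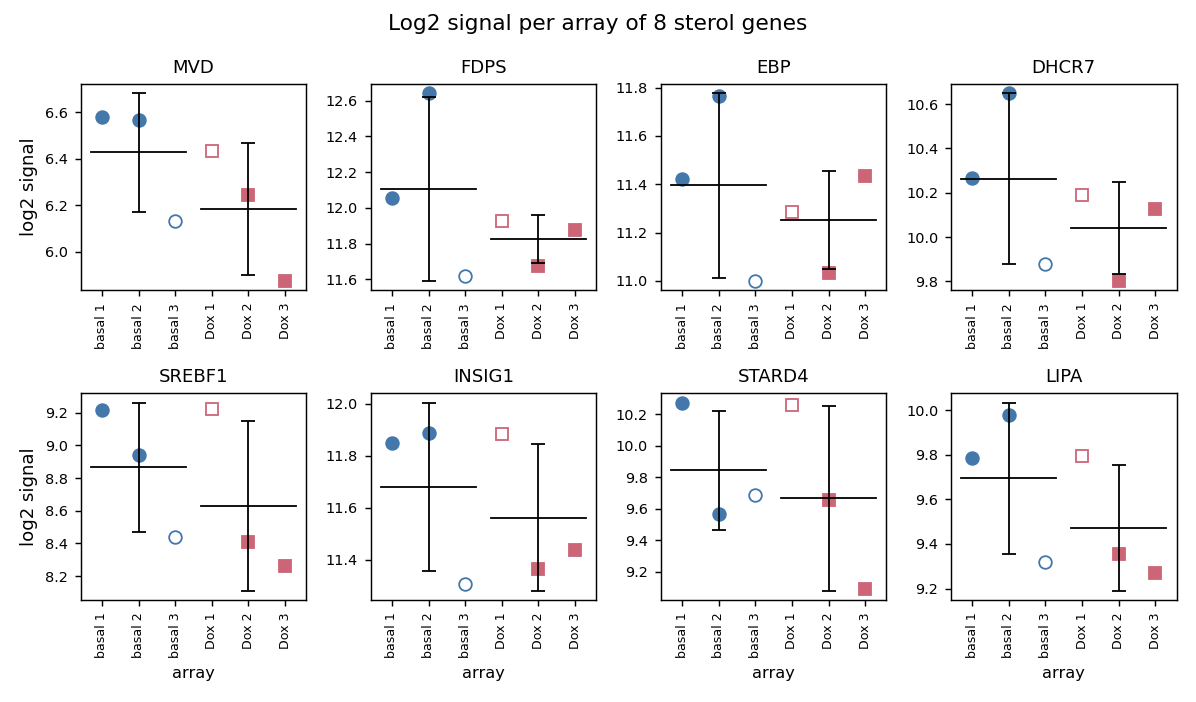
Log2 signal (y axis) of the 8 sterol genes that fell in the further comparison, in each of 6 arrays (x axis; circles, basal; squares, Dox), where a line gives the mean of 3 arrays and a bar their SD. Open symbols mark basal 3 and Dox 1, which that comparison left out: in all 8 genes Dox 1 lay above basal 3, and the SD bars of the labelled groups overlap.

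The calls depend on which arrays were kept and on the block. The sizes of the decreases depend on the arrays kept and on which block is used. In the arrays left out, Dox 1 was above basal 3 in all 8 genes that fell and in 23 of 33 sterol genes (51.9% of all genes). The difference was 0.79 in SREBF1, 0.58 in INSIG1 and 0.57 in STARD4. Because these arrays closely match basal 1 and Dox 2, it nearly repeats basal 1 minus Dox 2. The result in all 8 genes therefore follows from how they were called and is not a separate observation. When basal 1 and Dox 2 were left out instead, 0 sterol genes were called, and SREBF1, INSIG1 and STARD4 had differences of 0.05, 0.07 and 0.05. Without the array set block the differences were identical but their SE was larger, such as 0.23 in place of 0.12 in SREBF1, and 0 were called (5 lower at an unadjusted p under 0.05). Of the arrays kept, only basal 1 has a title in words. A block by title style therefore sets Dox 2 and Dox 3 against basal 2 alone. In that fit, which also crosses the array sets, all 8 differences were negative, from -0.87 in FDPS to -0.20 in STARD4. Because basal 2 stands alone there, these are effect sizes only, and no call is read from them. With basal 1 and Dox 2 left out instead, or without the array set block, limma called 0 of all 19776 genes.

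The annotation gave 73 probe sets for the 33 genes, and 12 genes had a single one, including FDPS, MVD and STARD4. Averaged over both array sets, Dox minus basal, the probe sets of INSIG1 lay between -0.55 and -0.47 (3 probe sets), those of DHCR7 at -0.49 and -0.45, and those of LIPA at -0.57 and -0.52. In these genes other probes gave a similar decrease, though the second probe set of LIPA was dim, with a mean of 5.49 over the arrays. The second probe set of SREBF1, with lower signal, gave only -0.17, and the 4 of EBP ranged from -0.50 to 0.03. The dimmer probe sets of CYP51A1 (-0.39) and HMGCS1 (-0.39) gave larger decreases than the brighter ones, which were at -0.04 and -0.16. In SCARB1, 1 probe set gave 0.74 where the other 4 were between -0.25 and -0.07, so the sign of that gene depends on the probes.

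Promoters of SREBP-responsive genes are known to combine a sterol response element with a site for the factor NF-Y, and promoters of 30 of the 34 listed genes were searched for these letters in RefSeq windows of GRCh38.p14, from 250 bases before to 50 after each annotated start. The motif CCAAT, bound by NF-Y, occurred on either strand in 21 of the 30 genes (70%), against 39.7% of 27305 genes with a window. Among genes with 1 window, it was found in 13 of 21 sterol genes (61.9%), against 36.2% of all. It was present in 7 of the 8 genes that fell and in 14 of the 22 others. The form TCACNCCAC of the sterol response element was found only in SREBF2 of the 30 (1.39% of all genes), and AAGGTCA, a form of the SF-1 motif, in 0 of 30 (4.8% of all genes). All motifs were searched on both strands, and overlapping CCAAT matches on opposite strands were each counted. These matches are descriptions of letters within short windows, not sites of binding. The 27305 genes were not limited to those measured on the arrays, whereas all measured sterol genes lay above the median signal. The shares were therefore not matched for expression.

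The stretches that follow are the 200 bases before a start, shown for 5 genes that fell and for SREBF2, which did not, so that their motifs can be compared. They are written 5′ to 3′ on the strand of the gene, with capitals for CCAAT, its reverse ATTGG, and the sterol response element.
FDPS, chr1:155308666-155308865, plus strand: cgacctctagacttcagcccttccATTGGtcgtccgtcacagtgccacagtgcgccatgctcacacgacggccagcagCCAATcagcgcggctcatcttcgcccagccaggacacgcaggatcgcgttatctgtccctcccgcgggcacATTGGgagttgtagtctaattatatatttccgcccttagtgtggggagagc
DHCR7, chr11:71448394-71448593, minus strand: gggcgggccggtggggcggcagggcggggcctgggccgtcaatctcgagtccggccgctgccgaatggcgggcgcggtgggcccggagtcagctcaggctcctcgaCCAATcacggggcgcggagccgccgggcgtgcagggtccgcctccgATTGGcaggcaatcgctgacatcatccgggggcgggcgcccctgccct
INSIG1, chr7:155297678-155297877, plus strand: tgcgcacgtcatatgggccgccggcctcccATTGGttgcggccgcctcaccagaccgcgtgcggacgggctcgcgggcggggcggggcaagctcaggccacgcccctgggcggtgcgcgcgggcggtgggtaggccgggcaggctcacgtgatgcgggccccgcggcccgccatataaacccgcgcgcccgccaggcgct
STARD4, chr5:111512536-111512735, minus strand: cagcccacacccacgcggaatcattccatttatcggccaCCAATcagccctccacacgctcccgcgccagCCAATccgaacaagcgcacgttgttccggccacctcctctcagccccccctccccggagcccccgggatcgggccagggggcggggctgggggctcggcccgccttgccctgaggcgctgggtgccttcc
SREBF1, chr17:17836987-17837186, minus strand: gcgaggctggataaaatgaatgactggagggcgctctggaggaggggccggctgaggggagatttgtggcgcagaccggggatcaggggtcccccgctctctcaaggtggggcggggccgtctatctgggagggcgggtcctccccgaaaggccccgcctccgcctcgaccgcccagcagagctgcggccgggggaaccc
SREBF2, chr22:41832905-41833104, plus strand: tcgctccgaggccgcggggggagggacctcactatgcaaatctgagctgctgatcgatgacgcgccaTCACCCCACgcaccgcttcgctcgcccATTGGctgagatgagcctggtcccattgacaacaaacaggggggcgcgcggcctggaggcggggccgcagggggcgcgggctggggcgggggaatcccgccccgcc
FDPS has 3 such CCAAT matches, DHCR7 and STARD4 have 2 each and INSIG1 has 1. The window of SREBF1, the gene with the largest decrease, has 0. The second window of DHCR7, not shown, has 0. In SREBF2 the sterol response element precedes an inverted CCAAT.

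**Figure D4:**
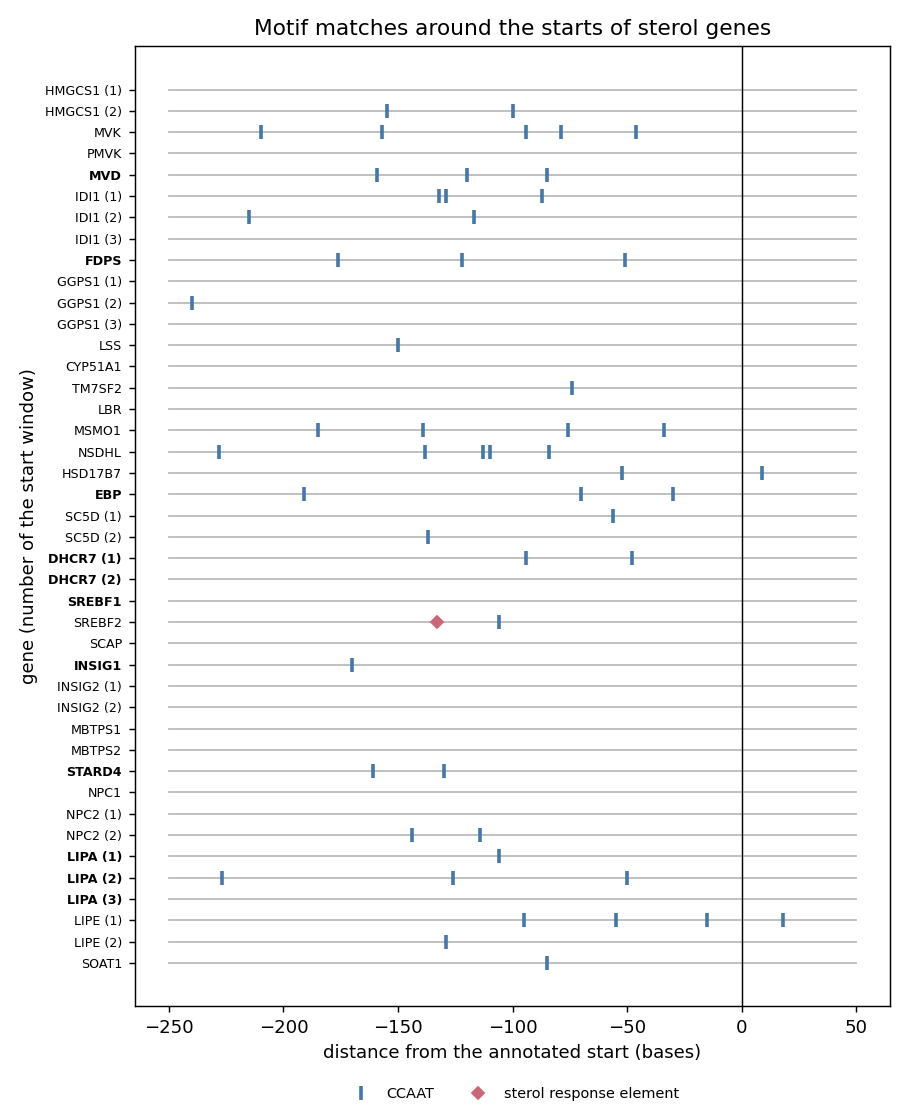
Matches to CCAAT on either strand (blue bars) and to the sterol response element (red diamond) by their distance in bases from the annotated start (x axis, 0 at the start) in every RefSeq window of the listed genes (y axis, with a number where a gene has several windows). Names in bold are the 8 genes that fell in the further comparison, 7 of which have a CCAAT match in at least 1 window.

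Sterol genes also differed between array sets of the same label. Basal 2 and Dox 3 differed from their counterparts of the same label, basal 1 and Dox 2, in 1 direction in 29 of 33 genes, beside 76% of all genes. Of the 29, 16 were higher (37.7% of all genes) and 13 lower (38.3%). MVK was higher by 0.75 in basal 2 than in basal 1 and by 0.71 in Dox 3 than in Dox 2. The difference was negative in MBTPS2 (-1.06 and -0.81), NPC1 (-0.86 and -0.91), GGPS1 (-0.73 and -0.58), INSIG2 (-0.72 and -0.71) and STARD4 (-0.70 and -0.57). By this measure, 5 genes were more than 0.5 lower in both pairs, beside 7.78% of all genes, and 1 was more than 0.5 higher, beside 3.08%. These values are a description, since the array set was itself read from the data, and what separates the sets is not given in the sources used here. Within the SREBP machinery the signs were mixed. SCAP was higher in basal 2 and Dox 3 (0.48 and 0.78), and so was SREBF2 (0.32 and 0.68), whereas INSIG2 was lower.

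**Figure D5:**
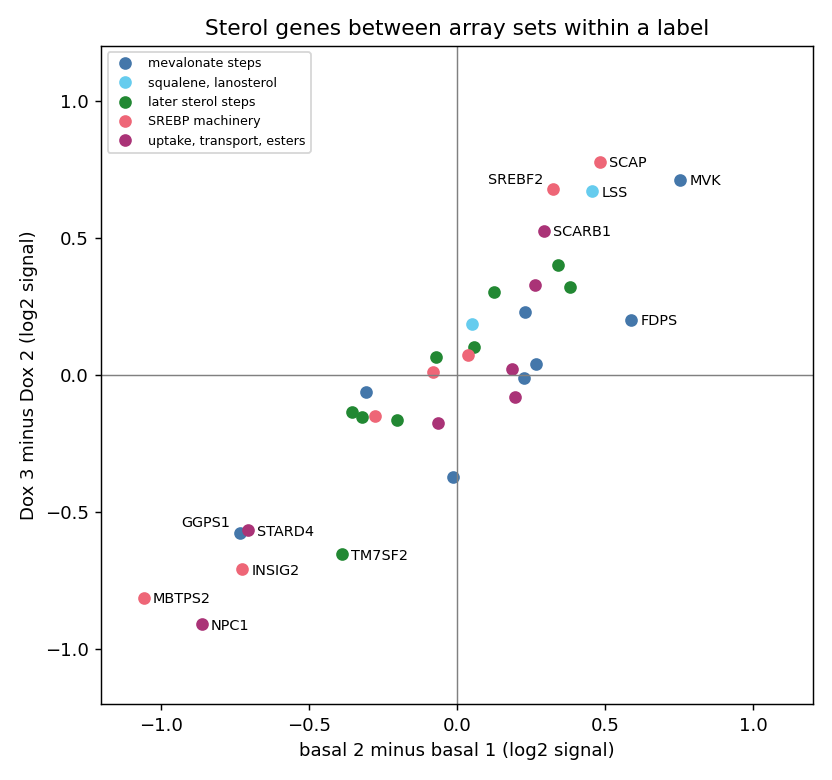
Difference in log2 signal of each of 33 sterol genes between basal 2 and basal 1 (x axis) and between Dox 3 and Dox 2 (y axis), coloured by role, with names where either exceeds 0.5 in size. Most points lie in the upper right and lower left, from MBTPS2 and NPC1 at the low end to MVK at the high end.

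Other genes of lipid supply were taken from 3 lists. Of 11 measured fatty acid enzymes known as SREBP targets, 5 fell (3.58% of all genes) and 0 rose (3.42%) in the further comparison. Their median was -0.29, and the difference was negative in all 11. FADS2, a fatty acid desaturase, was at 9.85, 10.16 and 8.85 in basal 1, 2 and 3 and at 9.75, 8.72 and 9.52 in Dox 1, 2 and 3, a change of -0.88 ± 0.13 (adjusted p = 0.00133). ACSS2, which makes acetyl-CoA from acetate, changed by -0.60 ± 0.11, the stearoyl-CoA desaturase gene SCD by -0.29 ± 0.07 and the elongase gene ELOVL5 by -0.29 ± 0.07 (adjusted p = 0.00765, 0.0225 and 0.0396). The fifth was ME1, the malic enzyme, named outside the limit of 4 genes for a list, at -0.37 ± 0.10. Of 13 genes of the non-sterol branch of the mevalonate pathway, which serves prenylation, ubiquinone and dolichol, 0 were called (limma; 1 lower and 2 higher at an unadjusted p under 0.05) and the median was 0.05.

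Of 21 measured further genes of sterol sensing, uptake and transport, 2 rose (3.42% of all genes) and 1 fell (3.58%), with a median of 0.02. GRAMD1B, a carrier of cholesterol from the plasma membrane to the endoplasmic reticulum, was at 8.47, 9.17 and 10.38 in basal 1, 2 and 3 and at 8.46, 10.34 and 10.95 in Dox 1, 2 and 3. It rose by 1.83 ± 0.10 (adjusted p = 2.26e-06), the opposite direction to STARD4. Its relative GRAMD1C rose by 0.52 ± 0.13 (adjusted p = 0.0326), and VLDLR, a lipoprotein receptor, changed by -0.70 ± 0.13 (adjusted p = 0.00726). In the comparison of all 6 arrays, 0 genes of these 3 lists were called (limma, 0 also at an unadjusted p under 0.05). The calls in the further comparison depend on its arrays and block. With basal 1 and Dox 2 left out instead, or without the block, 0 of all genes were called.

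Of 9 measured markers of other cells, the epithelial gene EPCAM was at 8.07, 7.36 and 7.16 in basal 1, 2 and 3 and at 8.12, 7.09 and 6.81 in Dox 1, 2 and 3. It fell in the further comparison (-0.76 ± 0.14, adjusted p = 0.00620) and the rest were not called. PTPRC, CDH5 and TH, of blood, endothelial and chromaffin cells, were below the median signal on all arrays. The other markers were above it on all arrays: PECAM1, also endothelial, CHGA and PNMT, also chromaffin, COL1A1, ACTA2 and EPCAM. The summed signal of the 9 markers on the linear scale was 861 to 1030 in basal and 815 to 1040 in Dox arrays, and their part in the results was not tested.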

How the data were processed

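Affymetrix expression arrays, 3 labelled basal and 3 labelled Dox, measured total RNA of the H295R/TR SF-1 line. The authors deposited 1 log2 signal per probe set and array. GCRMA, a method that adjusts for probe sequence, normalizes and summarises probes, is named in the submitters' processing notes. A single normalization of the 6 arrays is not stated in the sources used here. No presence calls were used, so a level below the median signal was not shown to be above background.

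The 54613 probe sets were reduced to 19776 genes by taking the brightest probe set per gene. Probe sets with 1 symbol (41091) were used, and those with several only where 1 was a listed gene. No further scaling or filter was applied. Groups were compared with limma 3.58.1 (lmFit and trended eBayes, R 4.3.3), with Benjamini-Hochberg adjustment over all genes and a threshold of 0.05, two-sided. The fit was run on simulated data with independent noise in each array. Those data held no close matches across labels, so they do not bear on how reliable the calls are here. The study names biological replicates without saying which arrays belong together, and precision is limited by how few arrays there are. Alternatives changed the variance model, scaling, low-value filter, probe-set rule, block, arrays kept and call rule.

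The listed genes, the lists beside them, the arrays of the further comparison and its block were chosen with earlier results of these data known. All listed genes, and up to 4 called genes of each other list, were to be named. Promoter windows were taken from RefSeq tables of GRCh38.p14. Figures were drawn with matplotlib 3.10.9.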

Additional observations from a re-analysis of the deposited data

How the results depend on the processing

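In the comparison of all 6 arrays, 0 sterol genes were called under every alternative tried, including each array left out in turn (limma). At an unadjusted p under 0.05 there was at most 1, FDPS without basal 3. In each of these settings 0 of all genes were called too, so the absence of calls was not particular to sterol genes. In the further comparison, the 8 genes called lower became 5 without the mean-variance trend (MVD, EBP and INSIG1 were lost). Of all 19776 genes, 568 were called lower in that setting. The 8 became 0 without the array set block (differences identical, SE larger) and 0 with basal 1 and Dox 2 left out instead. In these fits 0 of all genes were called too. Requiring a 2-fold change with an unadjusted p also gave 0, where 117 of all genes were lower and 185 higher. Title style as the block set Dox 2 and Dox 3 against basal 2 alone, with differences from -0.87 to -0.20 in the 8 genes. These are effect sizes only, and no call is read from that fit. With low values left out, limma called 9 sterol genes lower, with PMVK and MSMO1 added (adjusted p = 0.0392 and 0.0398) and MVD not tested. It called 1 sterol gene higher, SCAP (0.29, adjusted p = 0.0498). Of all 9888 genes kept in that setting, 754 were called lower and 722 higher. With the mean of all probe sets, 7 sterol genes were called lower, without EBP (adjusted p = 0.0824), beside 665 of all 19776 genes. With basal 1 and Dox 2 left out instead, the sign turned in SREBF1 (0.052), INSIG1 (0.065) and STARD4 (0.047). That fit averages Dox 1 minus basal 3 and Dox 3 minus basal 2. Those differences had opposite signs in these genes, such as 0.79 and -0.68 in SREBF1. Why they differed was not tested. Leaving out 1 more array from the further comparison with its array set block leaves no residual degree of freedom, so no such fit was made. The labels give the groups no shared replicate numbers, so no fit was paired by them; the blocks used were read from the values or the titles. With 1 residual degree of freedom, the calls rest largely on the variance that eBayes borrows across genes. Small changes of single genes may have been missed.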
